A study of Homo sapiens with 9 samples.

Results

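The insulin-like growth factor (IGF) axis was followed through 10 genes, taken by name from a list: the binding protein genes IGFBP2, IGFBP3, IGFBP4, IGFBP5, IGFBP6 and IGFBP7, the ligand genes IGF1 and IGF2, and the receptor genes IGF1R and IGF2R. These are 10 of the 64253 genes in the count files, and all 10 passed the filter on low counts. RNA was sequenced from IMR90 cells, a human lung fibroblast line, in 9 libraries that fall into 3 groups of 3. Every group was at population doubling 30, was grown in 2% oxygen, received 2 lentiviral infections with pLKO.1 vectors 24 hours apart and was selected with puromycin at 3 ug/mL for 7 days. The vector control group carried no hairpin; its label names an empty vector, whereas the treatment protocol names a GFP vector. The shRRM2 group, labelled senescence, carried a hairpin against RRM2, a subunit of ribonucleotide reductase, followed by a vector. The shRRM2/shp16 group, labelled senescence bypass, carried the same RRM2 hairpin followed by one directed at p16, a CDKN2A product that restrains the cell cycle. One hairpin per gene was used in 1 cell line, and a group with the p16 hairpin alone was not analysed here. The labels do not say whether the libraries of a group came from separate cultures, so the p-values measure the spread between these libraries, which may be technical.

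IGF1 and IGF2 are secreted growth factors that act mainly through IGF1R, a tyrosine kinase receptor, whereas IGF2R binds IGF2 without passing on a growth signal and carries it to lysosomes. The IGF binding proteins hold the ligands outside the cell, in part away from the receptor, and proteases that cut them release the ligands. In fibroblasts several of the binding proteins belong to the proteins that senescent cells secrete.

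IGFBP2, IGFBP5 and IGFBP3 had the widest ranges of group means, and their promoters are shown because the first pair rose in the shRRM2/shp16 libraries while IGFBP3 fell there. IGFBP2 (ENSG00000115457, chr2:216632828-216664436, plus strand) and IGFBP5 (ENSG00000115461, chr2:216672105-216695525, minus strand) lie tail to tail on chromosome 2, 7668 bases apart. IGFBP3 (ENSG00000146674) lies at chr7:45912245-45921874 on the minus strand. All coordinates are GRCh38. The sequences below are the 250 bases before a RefSeq transcript start (GRCh38.p14), in the direction of the gene, and capitals mark matches to the NF-kB consensus or to the GC box GGGCGG on either strand. The windows are chr2:216695550-216695799 (minus strand) for IGFBP5, chr2:216633170-216633419 (plus strand) for the middle of the 3 RefSeq starts of IGFBP2, and chr7:45921273-45921522 (minus strand) for IGFBP3.
IGFBP5: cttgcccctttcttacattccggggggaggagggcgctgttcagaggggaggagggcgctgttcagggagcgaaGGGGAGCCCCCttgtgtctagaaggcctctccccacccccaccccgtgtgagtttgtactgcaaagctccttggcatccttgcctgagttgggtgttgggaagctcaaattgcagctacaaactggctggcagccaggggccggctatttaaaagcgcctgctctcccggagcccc
IGFBP2: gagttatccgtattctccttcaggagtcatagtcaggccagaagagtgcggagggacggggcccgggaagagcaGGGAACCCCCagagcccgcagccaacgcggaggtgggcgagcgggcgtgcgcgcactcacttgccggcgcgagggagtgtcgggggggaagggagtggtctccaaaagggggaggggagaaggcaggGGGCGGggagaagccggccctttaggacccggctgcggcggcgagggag
IGFBP3: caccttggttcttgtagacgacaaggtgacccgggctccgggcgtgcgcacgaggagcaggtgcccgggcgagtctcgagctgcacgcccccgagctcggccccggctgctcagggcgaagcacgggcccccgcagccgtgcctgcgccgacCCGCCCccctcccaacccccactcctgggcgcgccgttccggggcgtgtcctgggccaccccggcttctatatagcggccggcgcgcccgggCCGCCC

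The IGFBP5 window held overlapping matches to the NF-kB consensus from 176 to 166 bases before the start, and the IGFBP2 window shown held such a match from 176 to 167 bases before the start, while the windows at the other starts of IGFBP2 held none. An NF-kB match was present in 10.0% of all 35114 RefSeq windows of the same length. A match was also present in the window of IGFBP6, which fell in the shRRM2/shp16 libraries. The IGFBP3 window held 2 GC boxes on the opposite strand, and the IGFBP2 window held 1 on the strand of the gene, a motif present in 42.6% of all windows. GC boxes were also present at IGF2R, IGF1R, IGFBP6, IGFBP4 and the first start of IGFBP2. Windows were found for 8 of the 10 genes and not for IGFBP7 and IGF2. Of the other motifs searched, a TATA box (TATAAA, 10.7% of windows) was found at IGFBP4, a CCAAT box (CCAAT, 32.0%) at the farthest start of IGFBP2, C/EBP letters (TTNNGNAA, 33.2%) at IGFBP6, IGF1 and IGF1R, and no AP-1 letters (TGANTCA, 6.6%) at any of the genes. These matches describe the letters in the windows; no binding was measured.

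Each library held between 15770895 and 24873291 reads counted on genes. Levels are given as counts relative to library size (CPM), scaled by the trimmed mean of M-values (TMM), and as CPM per kilobase of transcript (RPKM) where genes are compared with each other. RRM2 measured 481 to 491 CPM in the control libraries, 59.98 to 63.2 CPM in the shRRM2 libraries and 175 to 181 CPM in the shRRM2/shp16 libraries, so the RRM2 level also differed between the last 2 groups (log2 fold change 1.51, SE 0.04, edgeR adjusted p = 7.92e-34). CDKN2A, whose counts do not separate p16 from its other product, measured 5.95 to 6.15, 5.97 to 6.79 and 3.93 to 4.57 CPM in the same order. Of uniquely mapped reads, 17.6% to 18.9% matched no counted gene feature in the control libraries. This share was 27.7% to 28.8% in the shRRM2 libraries and 23.5% to 24.4% in the shRRM2/shp16 libraries. The counting settings are not given in the sources used here, so such reads may lie between genes or inside them. All 10 fibroblast markers were at 5 CPM or more. They summed to 27110 to 27970 CPM in the control, 26460 to 27250 CPM in the shRRM2 and 22810 to 23410 CPM in the shRRM2/shp16 libraries. All 4 epithelial and all 5 blood cell markers were under 5 CPM, and 4 of 5 endothelial markers were (the exception, TEK, averaged 65.2, 67.4 and 115 CPM). The 4 smooth muscle markers summed to 349 to 369 CPM in the control, 300 to 312 CPM in the shRRM2 and 137 to 148 CPM in the shRRM2/shp16 libraries. The part of these differences in the results below was not tested. In bulk RNA, fewer cells that express a gene and less RNA per cell cannot be told apart.

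RRM2 knockdown was compared with vector control to see which genes of the axis moved in the group labelled senescence. IGFBP7, IGF2, IGF1, IGFBP5, IGF2R, IGFBP6 and IGF1R rose, and the calls of IGF1, IGF1R and IGFBP5 were lost in some other settings, given with each gene. IGFBP7 rose 2.30-fold, and the remaining binding proteins IGFBP2, IGFBP3 and IGFBP4 did not pass the test. In all 7 of 10 genes passed in the upward direction and 0 in the downward direction at an edgeR quasi-likelihood adjusted p under 0.05. Over all 16561 tested genes, 29.0% were called higher, 31.8% lower and 60.9% in either direction in this comparison. The median log2 fold change was 0.27 over the 10 genes and 0.0024 over all tested genes.

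Adding the p16 hairpin to RRM2 knockdown was compared with RRM2 knockdown alone. IGFBP2 rose 4.01-fold and IGFBP5 2.18-fold, IGFBP4, IGF1R and IGF2R rose by 0.30, 0.21 and 0.15 on the log2 scale, and IGFBP3, IGF2, IGFBP7 and IGFBP6 fell. This gave 5 genes higher, 4 lower and 1 (IGF1) that did not pass, against 31.9% higher, 29.1% lower and 61.1% in either direction over all tested genes. Against vector control, the shRRM2/shp16 libraries had 6 genes higher and 4 lower, with 30.0% higher, 32.4% lower and 62.4% in either direction over all tested genes. The median log2 fold change of the 10 genes was 0.18 against shRRM2 and 0.29 against control, beside 0.011 and 0.015 over all tested genes. The shares of calls that were higher, 52.3% and 48.1% of all calls in these comparisons, became 62.4% and 59.5% when limma was run on the log2 RPKM values of the authors. The 3 comparisons share libraries, so their fold changes are given side by side and not set against each other.

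**Figure D1:**
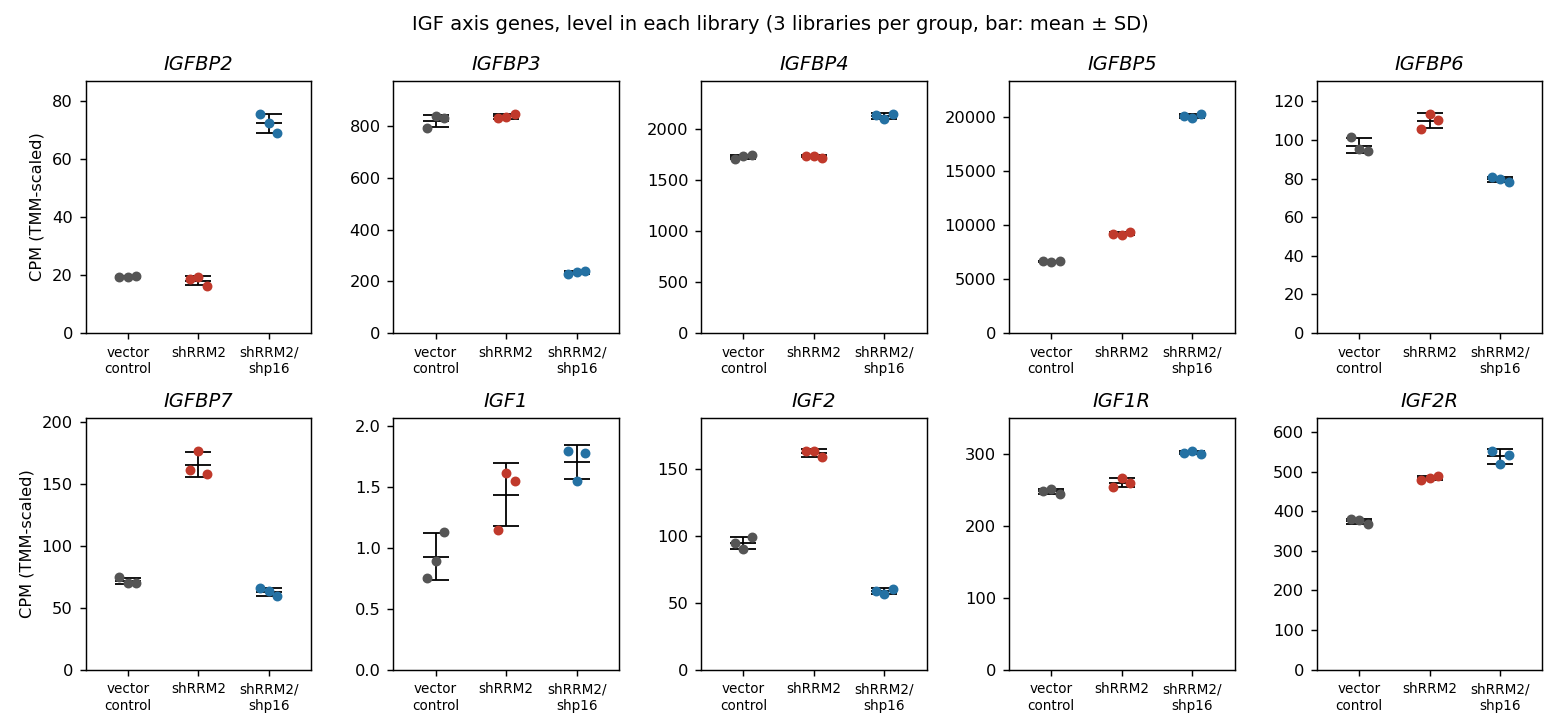
Level of each of the 10 genes in every library, in TMM-scaled CPM on linear axes that start at 0; points are libraries, and bars give the mean and SD of 3 libraries per group. IGFBP5 and IGFBP2 sit highest and IGFBP3 lowest in the 3 shRRM2/shp16 libraries, while IGFBP7 and IGF2 sit highest in the 3 shRRM2 libraries.

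IGFBP5 was the most abundant of the 10 genes per base of transcript in all 3 groups. It encodes a secreted binding protein that also attaches to extracellular matrix. Its level was 6656, 6568 and 6670 CPM in the control libraries, 9172, 9081 and 9342 CPM in the shRRM2 libraries and 20070, 19890 and 20280 CPM in the shRRM2/shp16 libraries. The 3 groups did not overlap, and the shRRM2/shp16 libraries stood highest. The log2 fold change was 0.47 (SE 0.02, edgeR adjusted p = 2.25e-23) for shRRM2 against control, 1.13 (SE 0.02, adjusted p = 1.25e-37) for shRRM2/shp16 against shRRM2, and 1.60 (SE 0.02, adjusted p = 3.44e-43) for shRRM2/shp16 against control. By RPKM, IGFBP5 took rank 20 among tested genes in the control group, rank 11 in shRRM2 and rank 3 in shRRM2/shp16. The call was lost when limma was run on the log2 RPKM columns of the authors as deposited (log2 differences 0.33, 0.75 and 1.09, adjusted p = 0.783, 0.509 and 0.331 in the same order of comparisons). It was kept in all 3 comparisons with limma on the RPKM of the authors with a pseudocount of 0.1.

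The authors' deposited table lists IGFBP5 in another way. The authors' deposited table compares shRRM2/shp16 with shRRM2 and gives a value of 1272 in shRRM2 and of 0 in shRRM2/shp16, with a log2 fold change of 0, a q-value of 1 and no call. The count files hold 380027, 399540 and 377323 IGFBP5 reads in the shRRM2/shp16 libraries and 144492, 157437 and 162803 in the shRRM2 libraries. Among tested genes at 1 CPM or more in both groups, 2 were listed in this manner, IGFBP5 and AC007563.5, an antisense gene at the same place. This antisense gene shares 298 exon bases with IGFBP5 and had 14 to 83 reads per library, so its reads are few beside those of IGFBP5. For 6 other members the authors' deposited table and the counts both called the same direction. Log2 fold changes in the authors' deposited table were 2.03 for IGFBP2, -1.79 for IGFBP3, 0.32 for IGFBP4, -0.44 for IGFBP6, -1.21 for IGFBP7 and -1.58 for IGF2, each with q = 0.000444. IGF1R (log2 fold change -0.0088, q = 0.984) and IGF2R (0.14, q = 0.775) were not called in the authors' deposited table, and neither was IGF1 (0.51, q = 0.776).

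**Figure D2:**
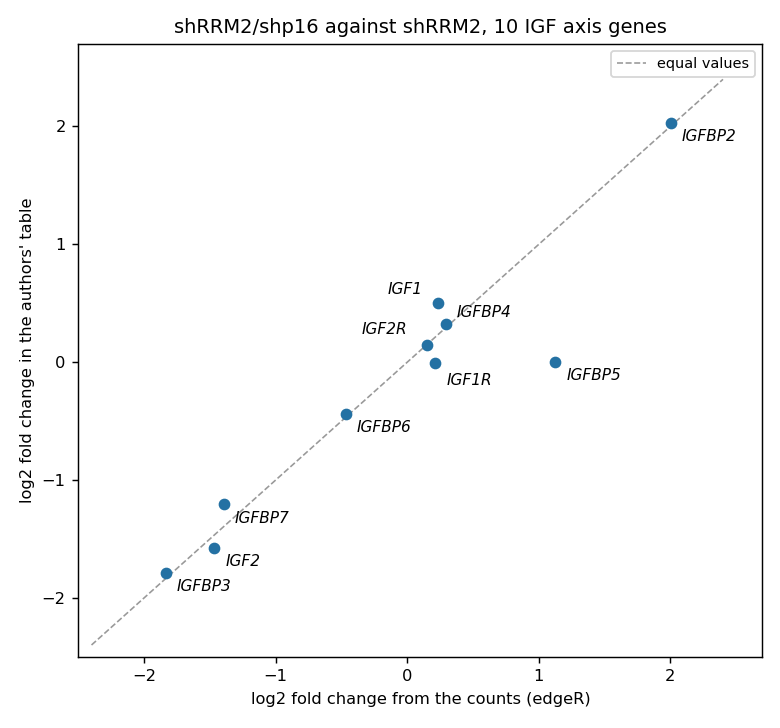
Log2 fold change of shRRM2/shp16 against shRRM2 for the 10 genes, from the counts (horizontal axis) and in the authors' deposited table (vertical axis); the dashed line marks equal values. IGFBP5 lies off the line, at 1.13 from the counts and 0 in the authors' deposited table.

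IGFBP4, an abundant binding protein that restrains IGF action until it is cleaved, was even between control and shRRM2 libraries. It measured 1708, 1735 and 1750 CPM in control libraries, 1742, 1737 and 1723 CPM in shRRM2 libraries and 2138, 2099 and 2152 CPM in shRRM2/shp16 libraries. Control and shRRM2 values overlapped, with a log2 difference of 0.0024 (95% interval -0.04 to 0.05), and the shRRM2/shp16 libraries stood above both. IGFBP4 rose by 0.30 on the log2 scale against shRRM2 (SE 0.02, edgeR adjusted p = 4.87e-15) and by 0.30 against control (SE 0.02, adjusted p = 2.78e-15). Both calls were lost with limma on the deposited log2 RPKM (adjusted p = 0.33 and 0.205), also at a mean RPKM of at least 1 (0.22 and 0.118). Both were kept with limma when the shRRM2 c column was left out, and with a pseudocount of 0.1. The gene lies at chr17:40443461-40457731 on the plus strand (ENSG00000141753).

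IGFBP3, the main carrier of IGFs in blood and a known target of p53, fell in the shRRM2/shp16 libraries against both other groups. Its level was 792.5, 838 and 829.7 CPM in control libraries, 830.9, 834 and 847.2 CPM in shRRM2 libraries and 228.9, 234.8 and 241.3 CPM in shRRM2/shp16 libraries. The shRRM2/shp16 values lay far below the other groups, which overlapped with each other. The log2 fold change was -1.83 against shRRM2 (SE 0.03, edgeR adjusted p = 1.54e-40), a 3.56-fold lower level, and -1.80 against control (SE 0.03, adjusted p = 2.14e-40). Only 3.07% of tested genes changed by as much against shRRM2. Between shRRM2 and control the log2 difference was 0.03 (95% interval -0.02 to 0.08, adjusted p = 0.322); it passed the test when at least 10 counts were required in every library (0.06, adjusted p = 0.0392).

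IGFBP2 had the largest fold change of the 10 genes. It encodes a binding protein with an integrin-binding motif that is abundant in fetal tissue. It measured 19.3, 19.3 and 19.7 CPM in control libraries, 18.6, 19.3 and 16.4 CPM in shRRM2 libraries and 75.7, 72.5 and 69.2 CPM in shRRM2/shp16 libraries. Control and shRRM2 overlapped, and every shRRM2/shp16 library was over 3 times higher. The log2 fold change was 2.00 against shRRM2 (SE 0.06, edgeR adjusted p = 2.69e-30) and 1.90 against control (SE 0.06, adjusted p = 3.14e-30), and 2.46% of tested genes changed by as much against shRRM2. Between shRRM2 and control the difference was -0.10 (95% interval -0.25 to 0.04, adjusted p = 0.213). The low level of this gene limits it to 285 to 460 reads per library in those groups.

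IGFBP7, a secreted relative with low affinity for IGFs, had its highest level in the shRRM2 group. It measured 74.9, 70.4 and 70.1 CPM in control libraries, 161, 177 and 158 CPM in shRRM2 libraries and 65.9, 63.8 and 59.5 CPM in shRRM2/shp16 libraries. The shRRM2 libraries stood apart above both other groups, and the shRRM2/shp16 libraries lay just below control. The log2 fold change was 1.20 for shRRM2 against control (SE 0.04, edgeR adjusted p = 5.44e-27) and -1.39 for shRRM2/shp16 against shRRM2 (SE 0.04, adjusted p = 2.72e-29). The fall below control, -0.19 (SE 0.05, adjusted p = 0.000442), was lost with limma on the deposited log2 RPKM (adjusted p = 0.673). It was also lost with limma on the RPKM of the authors with a pseudocount of 0.1 (-0.08, adjusted p = 0.368). IGFBP7 (ENSG00000163453, chr4:57030773-57110385, minus strand) shares 270 exon bases with POLR2B on the opposite strand, at 2120 to 3746 reads per library. POLR2B had log2 fold changes of -0.22 for shRRM2 against control and 0.16 for shRRM2/shp16 against shRRM2, in each case the direction opposite to IGFBP7.

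IGFBP6, which prefers IGF2 over IGF1, made smaller moves in the same directions. Its level was 102, 95.4 and 94.4 CPM in control libraries, 106, 114 and 111 CPM in shRRM2 libraries and 81.0, 79.8 and 78.4 CPM in shRRM2/shp16 libraries. No pair of groups overlapped, with shRRM2 highest and shRRM2/shp16 lowest. The log2 fold changes were 0.18 (SE 0.04, edgeR adjusted p = 0.000126), -0.46 (SE 0.04, adjusted p = 8.94e-14) and -0.29 (SE 0.04, adjusted p = 2.62e-08) in the order shRRM2 against control, shRRM2/shp16 against shRRM2 and shRRM2/shp16 against control. IGFBP6 (ENSG00000167779) lies at chr12:53097436-53102345 on the plus strand.

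**Figure D3:**
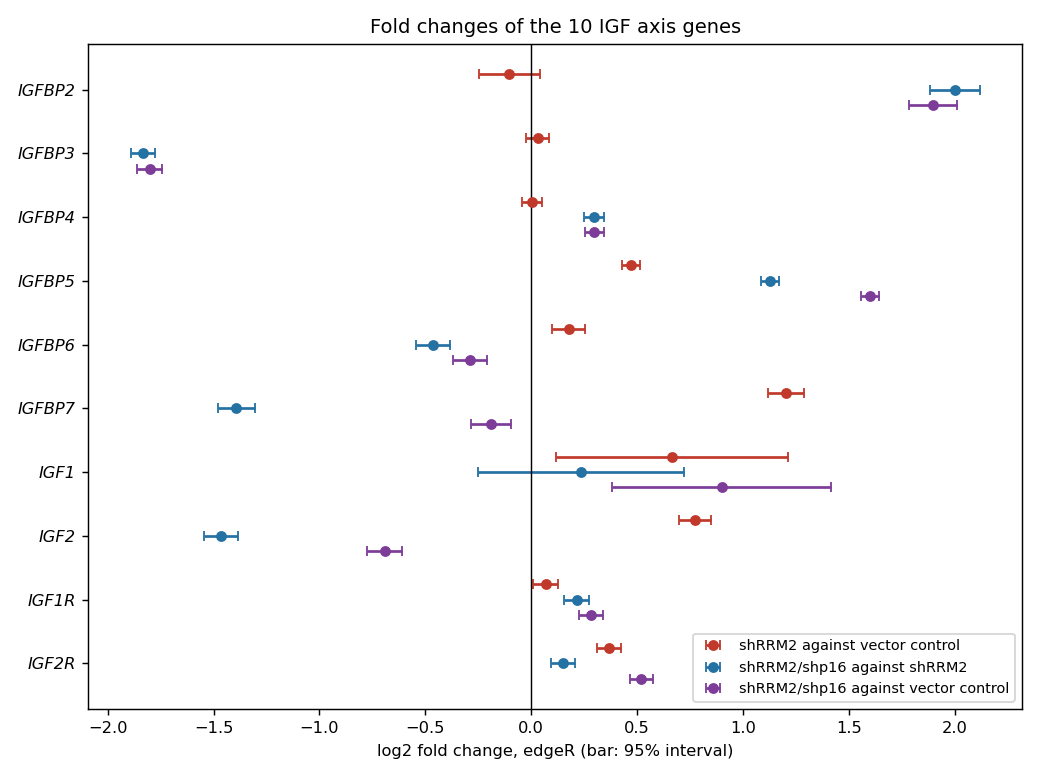
Log2 fold change of the 10 genes in the 3 comparisons from edgeR, with 95% intervals; points right of 0 are higher in the first-named group. IGFBP2 (2.00 and 1.90) and IGFBP3 (-1.83 and -1.80) mark the ends of the range, and IGF1, at 16 to 34 reads per library, has the widest intervals.

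Compared per base of transcript, IGFBP5 and IGFBP4 made up most of the binding protein RNA. The 6 genes summed to 2113 ± 12.2 RPKM in control, 2575 ± 13.8 RPKM in shRRM2 and 4247 ± 41.1 RPKM in shRRM2/shp16 libraries (SD, n = 3 each). IGFBP5 held 48.7% ± 0.346 of that sum in control, 55.5% ± 0.525 in shRRM2 and 73.4% ± 0.0924 in shRRM2/shp16 libraries. The share of IGFBP4 was 37.2%, 30.6% and 22.8%, and the share of IGFBP3 was 8.49%, 7.12% and 1.21%, in the same order. IGFBP7 held 1.76%, 3.33% and 0.769%, so its share was highest in shRRM2, while IGFBP2 stayed under 1% of the sum in every group. These are shares of RNA only, and no test was run on them. The order of the 10 genes by RPKM began with IGFBP5 and IGFBP4 in all groups. IGFBP3 held the third place in control (179 RPKM) and shRRM2 (183 RPKM) but the fifth in shRRM2/shp16 (51.4 RPKM), where its libraries overlapped with those of IGF2R (54.1 RPKM). Neighbours in the order also overlapped for IGF2R and IGFBP7 in control (37.7 and 37.2 RPKM) and for IGFBP6 and IGFBP7 in shRRM2 (86.0 and 85.7 RPKM). IGF1 was last everywhere, at 0.115, 0.178 and 0.211 RPKM. The length behind the deposited values was 9958 bases for IGF2R, against 17843 exon bases in GENCODE, with which its RPKM would be 21.0, 27.2 and 30.2. IGF2R would then lie below IGFBP3 in shRRM2/shp16 and below IGFBP7 in control. Its places in the order and its overlaps there thus depend on the length used.

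**Figure D4:**
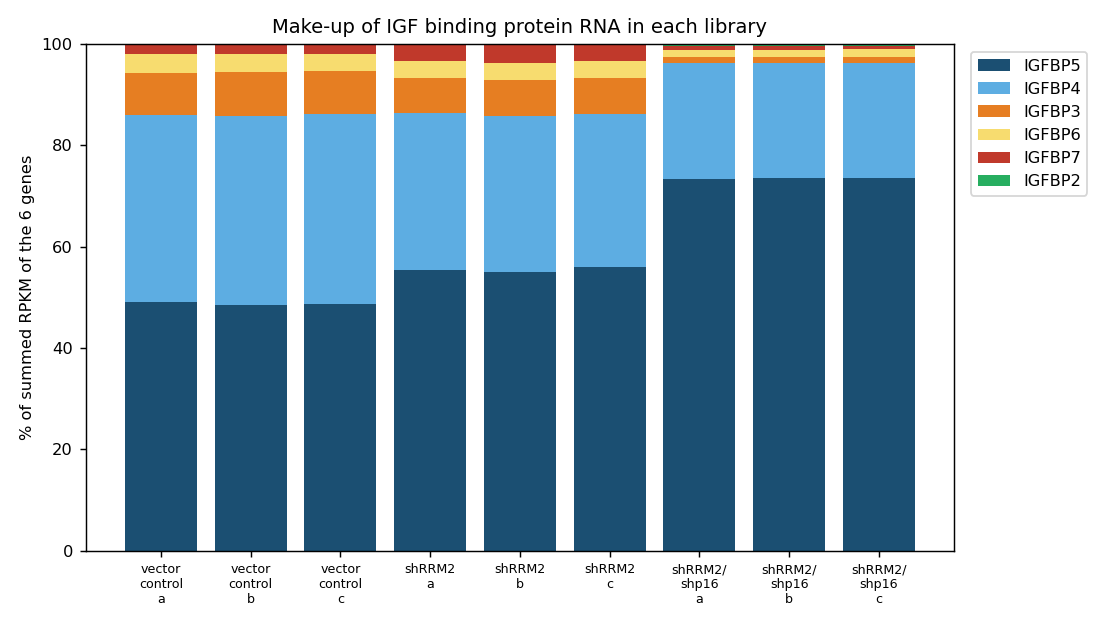
Share of each of the 6 binding protein genes in their summed RPKM, as stacked bars that run from 0 to 100%, for each of the 9 libraries. The IGFBP5 part grows from 48.7% in control to 73.4% in shRRM2/shp16 libraries, and the IGFBP3 part shrinks from 8.49% to 1.21%.

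Of the ligand genes, IGF2 was the more abundant in every library. IGF2 measured 95.1, 90.4 and 99.1 CPM in control libraries, 164, 164 and 159 CPM in shRRM2 libraries and 58.8, 56.6 and 60.7 CPM in shRRM2/shp16 libraries. The groups did not overlap, with shRRM2 highest and shRRM2/shp16 lowest. IGF2 rose by 0.77 on the log2 scale in shRRM2 against control (SE 0.04, edgeR adjusted p = 6.17e-22). Against shRRM2 it fell in shRRM2/shp16 libraries with a log2 fold change of -1.47 (SE 0.04, adjusted p = 1.87e-31), and against control with one of -0.69 (SE 0.04, adjusted p = 5.64e-19). The latter missed the threshold with limma on the deposited log2 RPKM (adjusted p = 0.0728). IGF2 (ENSG00000167244, chr11:2129112-2149603, minus strand) shares 1460 exon bases with the read-through gene INS-IGF2 on the same strand, which was at 0 reads in every library, so reads in the shared bases may be missing from the IGF2 counts. IGF1, the ligand made mostly in liver, had 18, 16 and 19 reads in control, 18, 28 and 27 reads in shRRM2 and 34, 31 and 33 reads in shRRM2/shp16 libraries. That equals 0.93 ± 0.19, 1.44 ± 0.26 and 1.70 ± 0.14 CPM (SD, n = 3 each), the lowest level of the 10 genes. Its log2 fold change was 0.66 for shRRM2 against control (SE 0.27, adjusted p = 0.0326) and 0.90 for shRRM2/shp16 against control (SE 0.26, adjusted p = 0.00226). The first was lost with DESeq2 (adjusted p = 0.0903), without the filter on low counts (adjusted p = 0.0789) and without 4 of the 6 libraries taken 1 at a time: control a (adjusted p = 0.155), control b (0.0635), shRRM2 b (0.109) and shRRM2 c (0.0823). The second was lost with limma on the deposited log2 RPKM (adjusted p = 0.19) and on the RPKM of the authors with a pseudocount of 0.1 (0.0671). Both limma fits also lost the first (adjusted p = 0.105 and 0.0516). Summed binding protein RPKM was 154 ± 6.56 times the summed RPKM of IGF1 and IGF2 in control, 110 ± 2.4 times in shRRM2 and 493 ± 13 times in shRRM2/shp16 libraries (SD, n = 3 each). The range over libraries was 148 to 161, 109 to 113 and 480 to 506, with no overlap. No test was run on this ratio, which compares RNA and not secreted protein.

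Both receptor genes rose by small steps, at most by 0.52 on the log2 scale. IGF1R (ENSG00000140443, chr15:98648539-98964530, plus strand) measured 249, 252.3 and 245.1 CPM in control libraries, 254.5, 267.8 and 260.3 CPM in shRRM2 libraries and 301.6, 305.4 and 301.1 CPM in shRRM2/shp16 libraries. The shRRM2/shp16 libraries stood above both other groups (log2 fold change 0.21 against shRRM2, SE 0.03, edgeR adjusted p = 1.96e-08, and 0.28 against control, SE 0.03, adjusted p = 1.24e-11). The rise in shRRM2 against control was 0.07 (SE 0.03, adjusted p = 0.0408). It was lost without the filter on low counts (adjusted p = 0.575) and without control a (0.0504), control c (0.213) or shRRM2 b (0.153). IGF2R, which also sorts lysosomal enzymes that carry mannose 6-phosphate, lies at chr6:159969099-160113507 on the plus strand (ENSG00000197081). It measured 379.2, 378 and 368.1 CPM in control libraries, 480, 484.8 and 489.5 CPM in shRRM2 libraries and 553.1, 518.4 and 543.2 CPM in shRRM2/shp16 libraries. The 3 groups stood in that order without overlap. IGF2R rose by 0.37 (SE 0.03, adjusted p = 2.38e-15) in shRRM2 against control, by 0.15 (SE 0.03, adjusted p = 7.37e-06) in shRRM2/shp16 against shRRM2 and by 0.52 (SE 0.03, adjusted p = 9.29e-21) in shRRM2/shp16 against control.

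Proteases that cleave binding proteins, and the inhibitors of these proteases, were read from a list of 10 genes, 9 of which were tested. PAPPA, the metalloprotease that cuts IGFBP4 and IGFBP5, measured 269.6, 255.9 and 260.9 CPM in control libraries, 601.4, 607.6 and 609.1 CPM in shRRM2 libraries and 1868, 1804 and 1805 CPM in shRRM2/shp16 libraries. STC1, an inhibitor of PAPPA, measured 242.8, 249.4 and 244.1 CPM, 419.4, 412.4 and 427.5 CPM, and 1731, 1759 and 1744 CPM in the same order. Both the protease and its inhibitor stood highest in shRRM2/shp16 libraries, with no overlap between groups. PAPPA rose by 1.21 and 1.59 on the log2 scale (SE 0.03 each, edgeR adjusted p = 3.27e-34 and 7.09e-40) for shRRM2 against control and shRRM2/shp16 against shRRM2. STC1 rose by 0.77 and 2.06 (SE 0.03 each, adjusted p = 3.59e-27 and 5.94e-44). STC2, the other stanniocalcin, rose by 0.15 and 0.17, and HTRA1, a serine protease, by 0.18 and 0.37. The first STC2 call was lost with limma on the deposited log2 RPKM (adjusted p = 0.2) and with a pseudocount of 0.1 (0.206). Of the 9 genes, 5 rose and 1 fell in shRRM2 against control, and 7 rose and 1 fell in shRRM2/shp16 against shRRM2, with median log2 fold changes of 0.18 and 0.43. Over all tested genes 60.9% and 61.1% were called in these comparisons, so the 6 of 9 called in the first is near that share. Against control, 7 rose and 1 fell in shRRM2/shp16 libraries (median 0.55). Over all tested genes, 30.0% were called higher, 32.4% lower and 62.4% in either direction in that comparison. ADAM12, a membrane protease, was the one that fell in shRRM2 (-0.72) and in shRRM2/shp16 against control (-0.29). CTSD, the lysosomal protease cathepsin D, was the one that fell in shRRM2/shp16 against shRRM2 (-0.25). Its call was lost with limma on the deposited log2 RPKM (adjusted p = 0.193) and with a pseudocount of 0.1 (0.209).

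Downstream of the receptors, a list of insulin and IGF signalling genes had 20 of 23 members tested and moved in both directions. In shRRM2 against control 10 rose and 5 fell, in shRRM2/shp16 against shRRM2 6 rose and 8 fell, and in shRRM2/shp16 against control 7 rose and 7 fell, with medians of 0.10, -0.05 and -0.0078. Over all tested genes the shares were 29.0% higher and 31.8% lower, 31.9% and 29.1%, and 30.0% and 32.4%, in the same order. INSR, the insulin receptor, averaged 27.7 CPM in each group and did not pass in any comparison (adjusted p = 0.951, 0.998 and 0.948, with a 95% interval of -0.13 to 0.12 for shRRM2 against control). The docking protein IRS1 fell by 0.20 on the log2 scale in shRRM2 against control, and IRS2 rose by 0.35. Against shRRM2, IRS1 rose by 0.08 in shRRM2/shp16 libraries (lost without shRRM2 c, adjusted p = 0.121) and IRS2 by 0.17. SHC1, an adaptor of the receptor, rose by 0.37 in shRRM2 against control and then measured -0.38 on the log2 scale when shRRM2/shp16 was set against shRRM2. The PI3-kinase regulatory subunit gene PIK3R3 had the lowest value in shRRM2 against control (-0.63), and the kinase gene AKT1 had the lowest in shRRM2/shp16 against control (-0.46). FOXO4, a transcription factor that AKT restrains, rose by 0.96 in shRRM2/shp16 against shRRM2 and by 0.97 against control. FOXO1, named after its values were seen because its level is under the minimum for naming, rose from 1.06 ± 0.16 CPM in control to 4.51 ± 0.56 CPM in shRRM2 libraries (SD, n = 3 each, log2 fold change 2.07, SE 0.20, adjusted p = 2.11e-12).

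**Figure D5:**
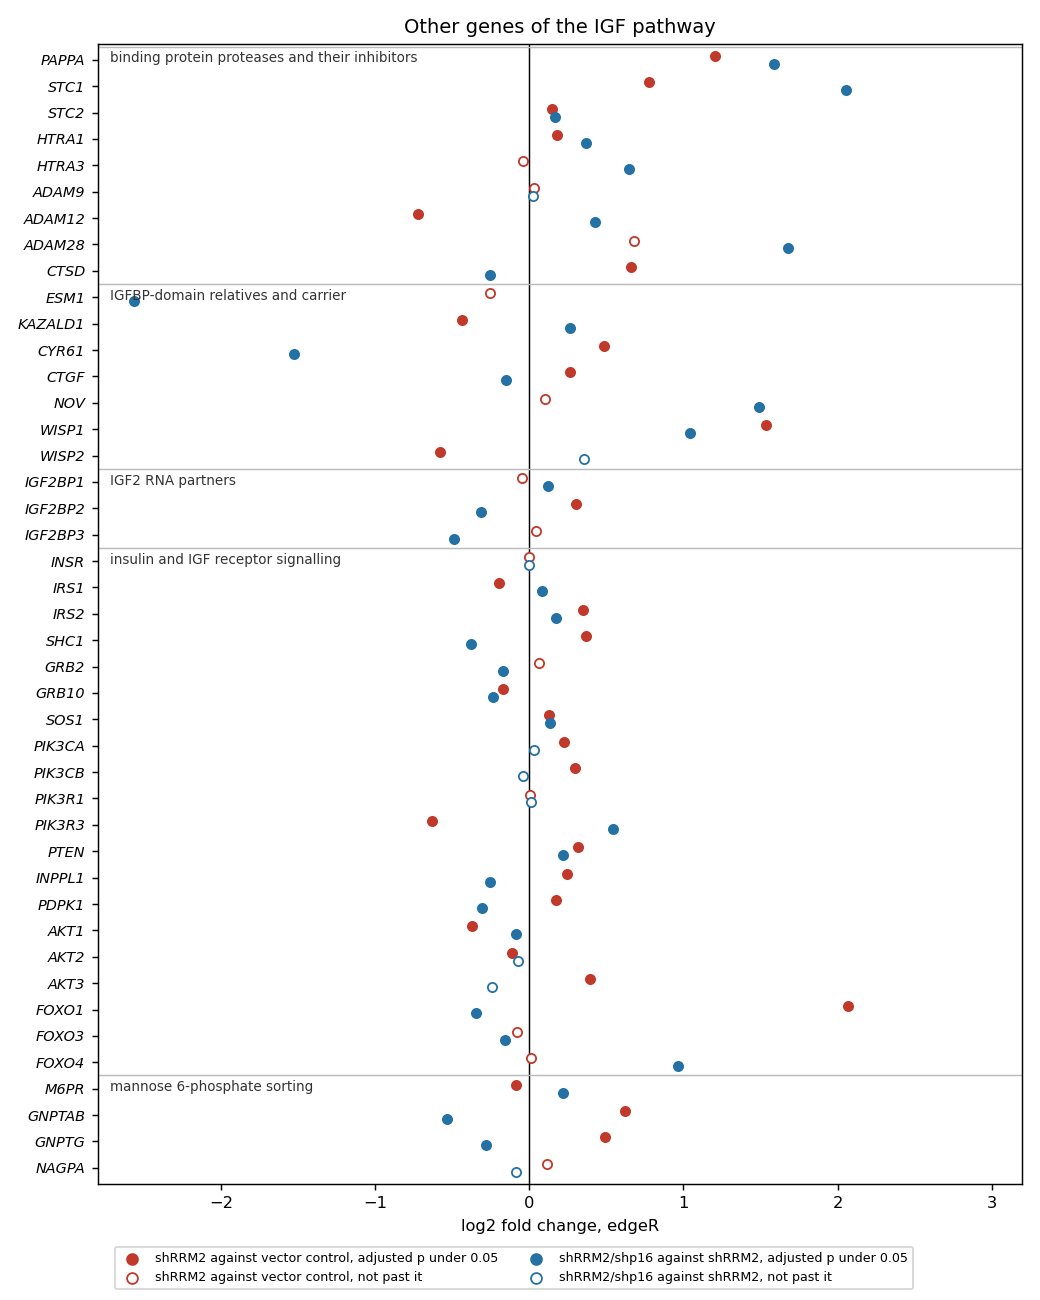
Log2 fold change of the tested genes of 5 further lists around the axis, for shRRM2 against vector control (red) and shRRM2/shp16 against shRRM2 (blue); filled points passed an edgeR adjusted p under 0.05 and open points did not. PAPPA and STC1 lie right of 0 in both comparisons, while CYR61 and SHC1 lie right of 0 in the first and left of 0 in the second.

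Relatives that carry an IGFBP domain, and the carrier subunit gene IGFALS, formed a list of 10 genes with 7 tested. IGFBP1 was not tested, at 0 to 14 reads per library, and IGFALS had at most 1 read. In shRRM2 against control 3 rose and 2 fell, in shRRM2/shp16 against shRRM2 3 rose and 3 fell, and in shRRM2/shp16 against control 3 rose and 2 fell, beside 60.9%, 61.1% and 62.4% of all tested genes called in either direction. WISP1 (CCN4), a matricellular protein, measured 10.6 ± 0.616 CPM in control libraries, 30.7 ± 0.263 CPM in shRRM2 libraries and 63.2 ± 1.42 CPM in shRRM2/shp16 libraries (SD, n = 3 each) and rose by 1.54 and then by 1.04 on the log2 scale. CYR61 (CCN1), a matricellular protein of the same family, measured 493 ± 3.1, 688 ± 10.2 and 239 ± 0.375 CPM. It rose by 0.48 in shRRM2 against control and then measured -1.53 on the log2 scale when shRRM2/shp16 was set against shRRM2. NOV (CCN3) had the largest rise in shRRM2/shp16 against shRRM2 (1.49, SE 0.08, adjusted p = 3.69e-21), and KAZALD1 had the lowest value in shRRM2 against control among called genes whose log2 CPM averaged 2 or more (-0.43, SE 0.11, adjusted p = 0.000671). Below that level WISP2 was lower still (-0.58, adjusted p = 0.0137), a gene named after its values were seen.

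IGF2 is tied to RNA partners and to the sorting system that uses IGF2R. The proteins IGF2BP1, IGF2BP2 and IGF2BP3 bind IGF2 mRNA. In shRRM2 against control IGF2BP2 rose by 0.30 on the log2 scale, and the log2 fold changes of IGF2BP1 (-0.04) and IGF2BP3 (0.04) did not pass. IGF2BP1 passed there without the filter on low counts (-0.085, edgeR adjusted p = 0.0409) and without shRRM2 c (-0.085, adjusted p = 0.0367). In shRRM2/shp16 against shRRM2 IGF2BP1 rose by 0.12, while IGF2BP2 (-0.31) and IGF2BP3 (-0.49) fell. H19, the noncoding RNA imprinted together with IGF2, had 1 to 8 reads per library and was not tested. Of 4 genes for mannose 6-phosphate sorting, 2 rose and 1 fell in shRRM2 against control, and 1 rose and 2 fell in shRRM2/shp16 against shRRM2, where 60.9% and 61.1% of all tested genes were called. GNPTAB, a subunit of the enzyme that builds the tag, rose by 0.62 and then had a log2 fold change of -0.53, while M6PR, the smaller receptor, had values of -0.09 and 0.22. The first M6PR value lost its call with 7 of the settings on counts, among them DESeq2 (adjusted p = 0.114).

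For the 3 members with the widest range of group means, the genes whose log2 CPM followed them most closely over the 9 libraries were looked up among 11401 genes. For IGFBP5 these were NRG1, a ligand of ERBB receptors, KLF9, a transcription factor, and STC1, with Pearson r of 0.9996, 0.9996 and 0.9995. Their mean levels were 29.6, 59.8 and 343 CPM for NRG1, 13.6, 21.8 and 67.9 CPM for KLF9 and 245, 420 and 1745 CPM for STC1 in control, shRRM2 and shRRM2/shp16. For IGFBP2 they were IL11, a cytokine (221, 214 and 720 CPM), ARHGAP28 and RNF24, a ring finger protein (r of 0.9986, 0.9984 and 0.9981). For IGFBP3 they were MEST, an imprinted gene, PXN, which encodes paxillin of focal adhesions, and SEMA7A, a membrane semaphorin (146, 160 and 10.4 CPM), with r of 0.9995, 0.9992 and 0.9992. The 9 libraries fall into 3 groups, so a gene whose group means are spaced alike has a high r, even where close means differ in order. At r over 0.99, 92 genes followed IGFBP5, 98 followed IGFBP2 and 156 followed IGFBP3.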

How the data were processed

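Ribosome-depleted total RNA was sequenced from 9 libraries of IMR90 fibroblasts, and gene counts, log2 RPKM columns and 1 table of comparisons were used. Per the submitters' processing notes the tools include TopHat2 2.0.9, Cufflinks 2.0.2 and Cuffdiff with GRCh38; the settings and the strand mode of the counting are not given in the sources used here. The deposited counts are whole reads per gene, and the closing tally lines that name no gene stayed out of library sizes and tests. The log2 columns deposited by the authors were made with a pseudocount of 1 from library-scaled reads per base, not per kilobase. This compresses the log scale of abundant genes as well as low ones. For IGFBP4 in shRRM2/shp16 against control, the log2 difference was 0.30 from counts and 0.19 on these columns. Of the 9 columns, 8 match the counts, and in the shRRM2 c column 7.35% of genes do. In the authors' deposited comparison, p-values and q-values are given beside 2 group values, a score whose scale is not stated.

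Genes were mapped by identifier, and groups were taken from the labels. Counts passed through filterByExpr (16561 genes, 99.82% of counts), TMM scaling and 1 edgeR 4.0.16 quasi-likelihood fit of all 9 libraries (R 4.3.3), two-sided, with Benjamini-Hochberg adjustment over all tested genes and a threshold of 0.05. RPKM was computed from TMM-scaled CPM and the gene length that the deposited columns imply. The fit was tested on simulated counts. Alternatives were RLE scaling, DESeq2 1.42.0, other filters, fewer libraries, a replicate block and limma 3.58.1 on the deposited log2 values. The letters a, b and c were checked as pairs: deviations from group means correlated at 0.293, 0.136 and 0.115 between same-lettered control and shRRM2/shp16 libraries, but at -0.146 to 0.11 in the other group pairs, and libraries with unlike letters reached -0.235 to 0.225, so the data do not settle whether the letters pair the libraries. Libraries of a group differed by more than counting noise (chi-square per degree of freedom 1.44 to 2.95), so none was treated as one library deposited more than once; this does not show that they came from separate cultures. The members, lists and rules were chosen with earlier results of these data known. All 10 members are named; of the other lists, the genes with the highest and lowest fold change per comparison among those past the threshold with mean log2 CPM of at least 2, and PAPPA, STC1, STC2, HTRA1, INSR, IRS1, IRS2, H19, IGF2BP1, IGF2BP2 and IGF2BP3 are named, with RRM2 and CDKN2A as the targeted genes. Promoter sequences come from RefSeq, and gene positions from GENCODE release 29.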

Additional observations from a re-analysis of the deposited data

How the results depend on the processing

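The numbers of members higher or lower stayed within 1.5 times their value in these alternatives on counts, at 5 to 8 higher in shRRM2 against control and with no change in the other comparisons: RLE scaling, DESeq2, both filters, the 6 compared libraries alone, the replicate block and leaving out each library. With limma on the deposited log2 RPKM, 3 members were higher in shRRM2/shp16 against shRRM2 (5 from counts), and 3 were higher (6) and 2 lower (4) against control. With the shRRM2 c column left out, the same 3 values were 4, 6 and 3. On the RPKM of the authors with a pseudocount of 0.1, they were 5, 5 and 3. With all columns and genes with a mean RPKM of at least 1, where IGF1 dropped out, they were 3, 3 and 2 again. There, 6522 of 12612 tested genes were called in shRRM2 against control (10079 of 16561 from counts). The cause was not tested. With the replicate block, 10101, 10134 and 10388 genes were called in the order of the comparisons, no member changed its call, and FOXO1 lost its call in shRRM2/shp16 against shRRM2 (edgeR adjusted p = 0.0541). Over 30 member fold changes and their alternatives, 443 of 477 values kept their side of the threshold, 33 lost the call and 1 gained it; 19 of the 30 never changed side. No called member fold change reversed. The pathway genes IGF2BP2 and SHC1, with no call from counts in shRRM2/shp16 against control, had the opposite sign with a call in limma on the deposited values. IGF2BP2 measured 0.0026 on log2 RPKM with all columns, without the shRRM2 c column and at a mean RPKM of at least 1, and 0.093 with a pseudocount of 0.1, and SHC1 measured 0.0064 without the shRRM2 c column. Depth limits IGF1 to 16 to 34 reads per library.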

Other observations

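Genes next to the members did not all move with them. Of 8 tested genes within 500000 bases of IGFBP2, its neighbour IGFBP5 rose in shRRM2/shp16 against shRRM2 (log2 fold change 1.13), while MARCH4, a membrane ubiquitin ligase 260800 bases away, had a log2 fold change of -1.94 (SE 0.05, edgeR adjusted p = 1.54e-31). RPL37A, a ribosomal protein gene 53647 bases from IGFBP2, rose by 0.20 there, and SMARCAL1, a helicase gene, did not pass (-0.08, adjusted p = 0.245). Near IGF2, the imprinted noncoding RNA KCNQ1OT1, 458724 bases away, rose by 1.24 in shRRM2 against control and measured -0.65 when shRRM2/shp16 was set against shRRM2, the directions of IGF2, but against control it was higher in shRRM2/shp16 libraries (0.60) where IGF2 was lower (-0.69). Near IGF2R, the mitochondrial superoxide dismutase gene SOD2 rose by 0.996 in shRRM2 against control and by 1.88 in shRRM2/shp16 against shRRM2. These neighbours were named after their values were seen, and no test compares them with genes elsewhere.

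The antisense gene over IGFBP5, AC007563.5 (AC007563.2 in GENCODE), rose with it. It averaged 1.32 CPM in control libraries, 2.41 CPM in shRRM2 libraries and 3.68 CPM in shRRM2/shp16 libraries, and rose by 0.96 on the log2 scale in shRRM2 against control (edgeR adjusted p = 0.00295) and by 0.60 in shRRM2/shp16 against shRRM2 (adjusted p = 0.0194). The strand mode of the counting is not given in the sources used here, so reads of IGFBP5 and of its antisense gene cannot be told apart with certainty.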
